A study of Homo sapiens with 2 samples.

Results

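The 14q32 DLK1-DIO3 imprinted microRNA (miRNA) cluster was followed in Huh7 cells, an established human hepatocellular carcinoma line. Members were the rows whose miRBase mature-sequence accession stood on a list of 43 accessions assigned to the cluster, and all 43 were found among the 1001 rows of the table. The Y27632 sample was 1 array of Huh7 cells 12 hours after 10 µM Y27632, a small-molecule kinase inhibitor. The control sample was 1 array of Huh7 cells, taken as control from its title, since the labels attach the treatment text to both samples. The title gives neither a vehicle nor a time of harvest, so these cannot be told apart from Y27632. Both samples shared the same line and medium with fetal bovine serum, and both RNAs carried the dye Hy5.

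The DLK1-DIO3 domain is imprinted. DLK1, RTL1 and DIO3 are transcribed from the paternal chromosome, while the noncoding RNAs of the domain, MEG3 and the miRNAs among them, come from the maternal one. The miRNAs lie in long maternal transcripts that are cut into many hairpins, and each hairpin can give a mature miRNA from either arm. The cluster is known for high levels in placenta, embryo and brain, and in liver cancer it is known to be high in a subset of tumours. A mature miRNA finds its messenger RNA targets mainly through its seed.

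The table pairs no accession with a miRNA name, and the reference tables hold none of these accessions. Membership therefore rests on the list, could not be checked against names, and no value below is assigned to a named miRNA, a genome position or an arm. For the same reason the hepatocyte and other cell type markers could not be looked up. By choice, no more than 2 accessions are given for either direction, and other members are told apart by their values.

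The sequences that follow show how close miRNAs within a span of the cluster can be. The description of the cluster names 9 miRNA genes (MIR127, MIR134, MIR370, MIR379, MIR382, MIR409, MIR494, MIR495 and MIR654), and all 9 were found in RefSeq (GRCh38.p14). Between the outermost of their mature sequences, from chr14:100883001 to 101065367, RefSeq places 42 miRNA genes and 77 mature entries with 73 different names, all 77 on the plus strand. The mature sequences are 19 to 25 bases long, with a GC content of 27.3% to 72.7% and a median of 45.5%. They hold 63 different seeds (bases 2 to 8), of which 10 are shared by 2 names each. The span was cut at the outermost of the 9 named genes, so these counts are not totals for the cluster. miR-127-3p, one of the 2 miRNAs that the description names with their arm, is shown as an example with a seed of its own. miR-654-5p, the other, is shown with miR-541-3p, which has the same seed. miR-376a-3p and miR-376b-3p are shown as a shared seed with a nearly identical remainder. Capitals mark the seed, and each sequence runs 5′ to 3′.
miR-127-3p, plus strand of chr14:100883035-100883056: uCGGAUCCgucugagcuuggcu
miR-654-5p, plus strand of chr14:101040234-101040255: uGGUGGGCcgcagaacaugugc
miR-541-3p, plus strand of chr14:101064548-101064569: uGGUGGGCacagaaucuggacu
miR-376a-3p, plus strand of chr14:101040825-101040845 (the MIR376A1 copy): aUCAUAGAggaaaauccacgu
miR-376b-3p, plus strand of chr14:101040497-101040518: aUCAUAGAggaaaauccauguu
Aligned from the 5′ end without gaps, miR-654-5p and miR-541-3p are identical at 11 of 22 bases, and miR-376a-3p and miR-376b-3p at 20 of 21. How well the array's probes separate such neighbours is not given in the sources used here.

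The deposited values are array intensities on an apparently linear scale, and a row without a value on an array is called not listed. What an empty cell stands for is not stated. The table as a whole had 614 listed rows on the Y27632 array and 619 on the control array, with medians of 6.1 and 6.0 and lowest listed values of 2.7 and 2.3. With 1 array per condition there was no replicate error, no test was made, and every difference below describes these 2 arrays. The intensities of different probes do not rank miRNAs by abundance.

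The cluster was listed sparsely. On the Y27632 array 18 of the 43 members had a value (41.9%), against 61.3% of all rows, and on the control array 22 members had one (51.2%), against 61.8% of all rows. Both arrays listed 15 members (34.9%), the Y27632 array alone 3 (6.98%), the control array alone 7 (16.3%), and neither array 18 (41.9%). Over all rows, 51.8% were listed on both arrays, 9.49% on the Y27632 array alone, 9.99% on the control array alone and 28.7% on neither. Most members therefore had no pair of values to compare.

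**Figure D1:**
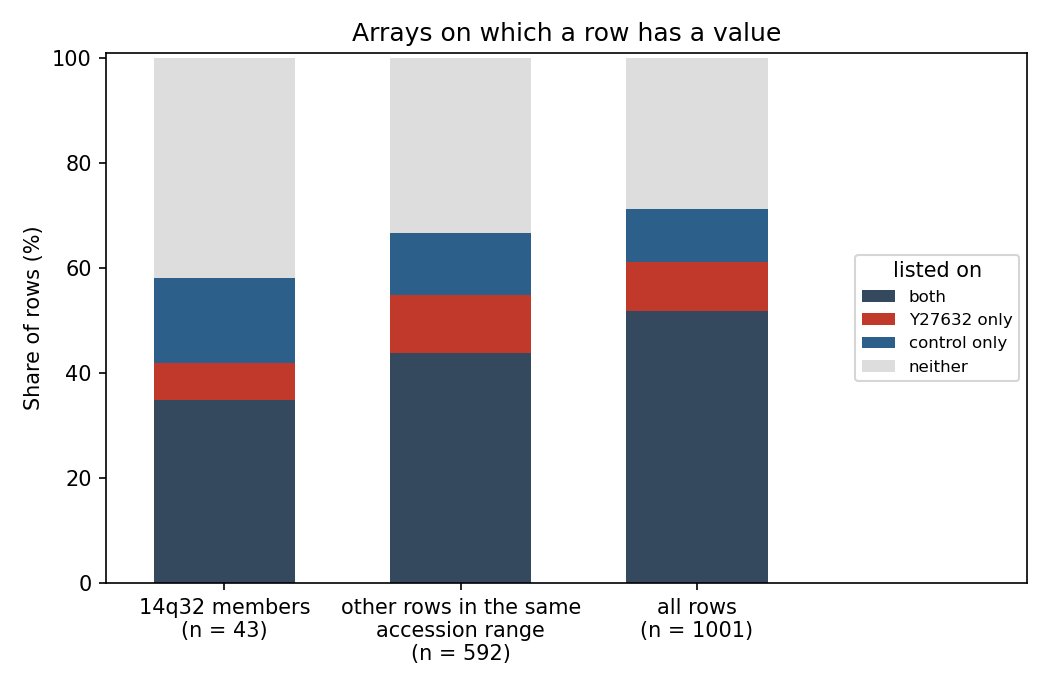
Stacked bars give the share of rows (%) listed on both arrays, on the Y27632 array only, on the control array only or on neither. From left to right they show the 43 members, the 592 other rows in the same accession range, and all 1001 rows. The segment for both arrays is 34.9% for the members, 43.9% for the other rows in the range and 51.8% for all rows.

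Other rows between the lowest and the highest member accession number were also listed less often than the whole table. MiRBase numbers entries broadly in order of registration, and the members run from a low to an intermediate number. Of the 592 other rows in that range, 43.9% were listed on both arrays and 33.3% on neither, which lies between the members and the whole table. On the Y27632 array the share listed was 54.9% for these rows, and on the control array it was 55.7%.

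The shares listed varied along the range, for members and other rows alike. The members fall into 4 runs of accession numbers separated by gaps of over 600. The other rows of the whole range include rows in these gaps, so they are not matched to where the members lie. In the first run, 8 of 16 members were listed on at least 1 array, against 43 of 53 other rows. In the second, 9 of 11 members were, against 6 of 7 others. These runs hold most of the members, and their other rows were listed more often than all rows (71.3%). In the third, 7 of 13 members were, against 135 of 226 others. The last run held 3 members, of which 1 was listed, and 10 of its 17 other rows were listed. Counting rows listed on both arrays, the members gave 4 of 16 against 31 of 53 others in the first run, and 5 of 11 against 5 of 7 in the second. In the third they gave 5 of 13 against 80 of 226, a slightly higher share for the members, and in the last 1 of 3 against 8 of 17.

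Listed members were mostly dim. On the Y27632 array their median intensity was 4.85 (n = 18, range 3.1 to 117.6), against 6.1 over all listed rows. On the control array it was also 4.85 (n = 22, range 2.3 to 134.8), against 6.0 over all listed rows. The other listed rows in the accession range had medians nearer to the members, 5.1 on the Y27632 array and 5.25 on the control array. An intensity of at least 10 was reached by 3 members on each array (6.98% of 43), against 21.9% of all rows on the Y27632 array and 22.2% on the control array. For the other rows in the accession range these shares were 15.4% and 15.7%. An intensity of at least 5 was reached by 8 members on the Y27632 array (18.6%), against 36.9% of all rows. On the control array it was reached by 11 members (25.6%), against 36.4% of all rows. Of the other rows in the accession range, 28.4% reached it on the Y27632 array and 29.6% on the control array.

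A single member carried about as much signal as the rest of the cluster together. The brightest, MIMAT0002816, read 117.6 on the Y27632 array and 134.8 on the control array, which placed it 55th and 54th among the listed rows. The members' intensities summed to 242 on the Y27632 array and 284.3 on the control array, so the brightest made up 48.6% and 47.4% of them. Part of the gap between these sums comes from members listed on only 1 array. The whole cluster came to 0.194% of the summed intensity of the Y27632 array and 0.239% of that of the control array. These shares depend heavily on a few very bright rows. The brightest row, no member, read 43198.2 of a sum of 124946 on the Y27632 array. On the control array the brightest row, also no member, read 45829.6 of 119093.

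The second brightest member read 34.7 on the Y27632 array and 42.4 on the control array, at ranks 106 and 100. The third brightest read 14.6 on the Y27632 array and 18.8 on the control array, at ranks 168 and 151. These 3 were the only members at 10 or more on either array. Below them the members formed a closely spaced series that ended at the lowest listed values.

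**Figure D2:**
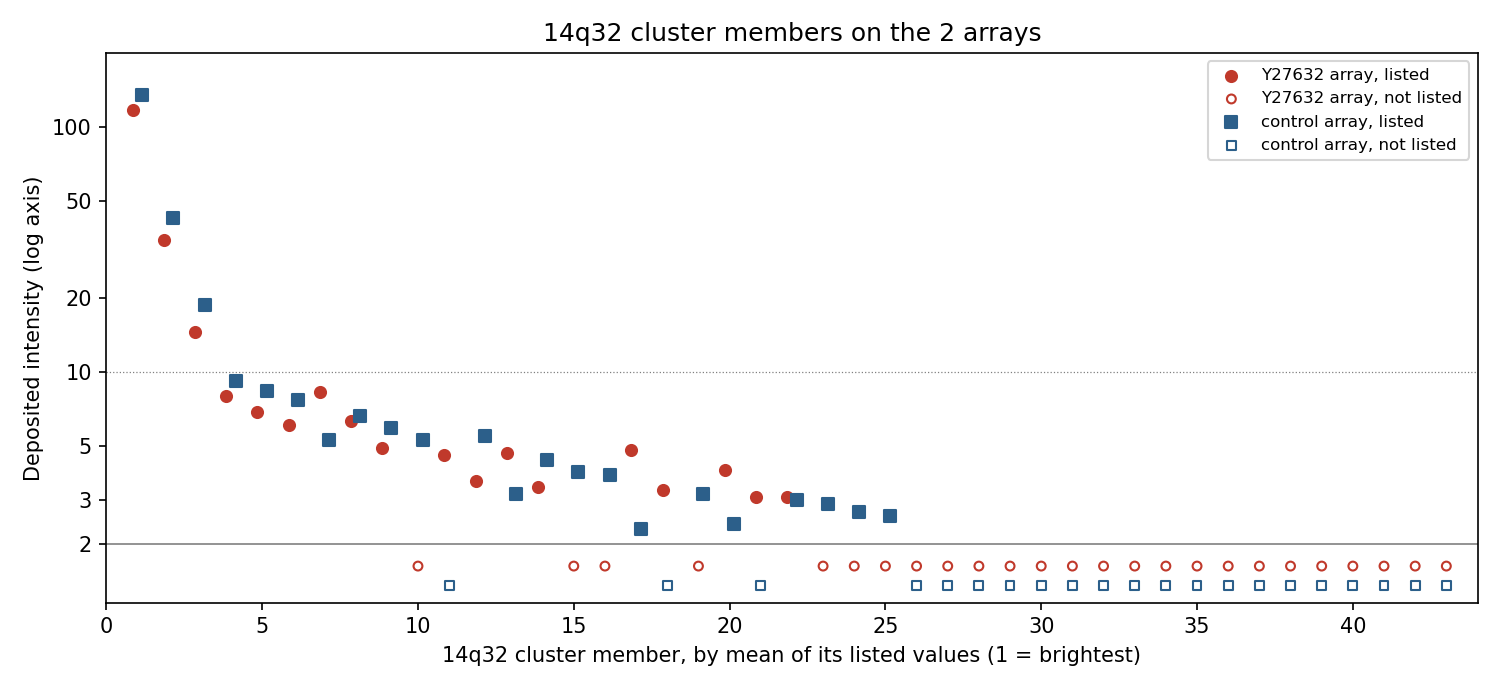
Each of the 43 members is placed by the mean of its listed values (1 = brightest), with its deposited intensity on a log axis. Red circles are the Y27632 array and blue squares the control array, open symbols below the solid line mark members not listed, and the dotted line marks an intensity of 10. 3 members lie above 10 on each array, and 18 have no value on either.

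The 3 brightest members all read lower on the Y27632 array, by less than 1.5-fold. The log2 ratio of Y27632 over control was −0.20 for MIMAT0002816, −0.29 for the second brightest and −0.36 for the third. As a scale, each was set against the 100 rows nearest in brightness, in units of a robust SD, the median absolute deviation of those rows scaled to an SD. The 3 lay at −1.09, −1.17 and −1.20 robust SDs from the median of those rows. Of the 23 other rows within 1.5-fold of MIMAT0002816 on the control array, 15 also read lower on the Y27632 array, and 4 had a log2 ratio as low or lower. For the second brightest, 12 of 41 such rows were as low or lower, and for the third 10 of 65.

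The next members by brightness also read slightly lower. The fourth read 8.0 on the Y27632 array and 9.2 on the control array, a log2 ratio of −0.20. The fifth read 6.9 on the Y27632 array and 8.4 on the control array, a log2 ratio of −0.28. Together with the first 3 these are the 5 members in the brighter 50% of rows listed on both arrays (geometric mean of at least 7.57), and all 5 were below 0. In that brighter 50% as a whole, 145 of 260 rows (55.8%) were below 0, and the median log2 ratio was −0.03, against −0.28 for the 5 members. The distance of the 5 from their neighbours in brightness ran from −1.20 to −0.47 robust SDs. With 1 array per condition and so few members, this common sign is a description only.

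Over all 15 members listed on both arrays, 5 read higher and 10 lower on the Y27632 array. Among all 519 rows listed on both, 252 read higher, 254 lower and 13 the same. The median log2 ratio of the members was −0.20, with quartiles of −0.31 and 0.30. The median over the 519 rows was 0.00, with quartiles of −0.22 and 0.20. At a limit of 1.5-fold, 3 of the 15 members were higher, against 8.86% of the 519 rows, and 1 was lower, against 5.39%. At a limit of 2-fold, 1 member was higher, against 2.5% of rows, and 0 were lower, against 0.578%. All 4 members past 1.5-fold had a geometric mean intensity under 10, where the limit was passed upward by 14.4% of the 299 rows and downward by 8.03%. In rows of at least 10 on both arrays the limit was passed by 0.98% upward and 0.49% downward, and by 0 of the 3 members.

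The largest ratio belonged to the member with the lowest listed value. MIMAT0001625 read 4.8 on the Y27632 array and 2.3 on the control array, where 2.3 is the lowest value of any row. Its log2 ratio was 1.06, at 1.92 robust SDs above rows of like brightness. The second largest belonged to a member at 4.0 on the Y27632 array and 2.4 on the control array, with a log2 ratio of 0.74 at 1.30 robust SDs. MIMAT0001639 read 8.3 on the Y27632 array and 5.3 on the control array, a log2 ratio of 0.65. At 2.07 robust SDs it was the only one of the 15 beyond 2 in either direction. Among all 519 rows, 16 lay more than 2 above their neighbours and 10 more than 2 below. One more stopped just short of 1.5-fold, with 4.7 on the Y27632 array, 3.2 on the control array and a log2 ratio of 0.55.

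In the other direction MIMAT0002814 read 3.6 on the Y27632 array and 5.5 on the control array. Its log2 ratio of −0.61 was the lowest of the 15 and lay at −1.10 robust SDs from rows of like brightness. It was followed by a member at 3.4 on the Y27632 array and 4.4 on the control array, with a log2 ratio of −0.37. Another read 6.1 on the Y27632 array and 7.7 on the control array, a log2 ratio of −0.34. A further one read 4.9 on the Y27632 array and 5.9 on the control array, a log2 ratio of −0.27.

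The remaining 2 members of the 15 were nearly equal on both arrays. One read 6.3 on the Y27632 array and 6.6 on the control array, a log2 ratio of −0.07. The other read 3.1 on the Y27632 array and 3.0 on the control array, a log2 ratio of 0.05.

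**Figure D3:**
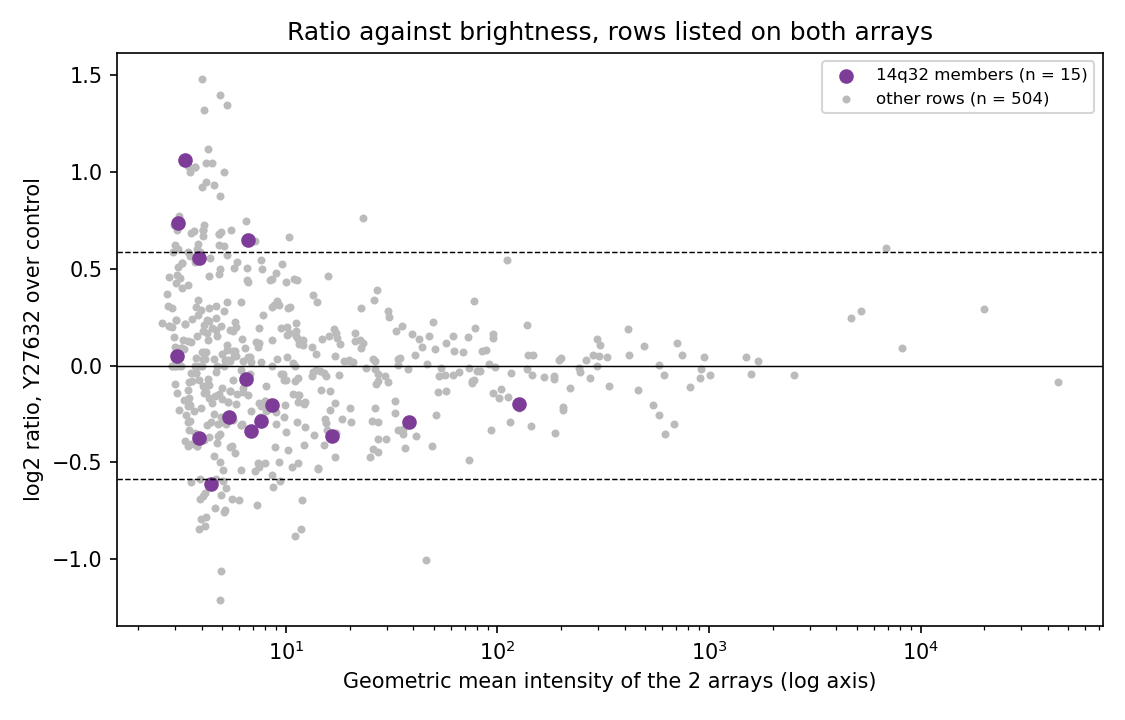
The log2 ratio of Y27632 over control is plotted against the geometric mean intensity of the 2 arrays (log axis) for the 519 rows listed on both. Purple points are the 15 members, grey points the 504 other rows, and dashed lines mark 1.5-fold. The 3 members at 10 or more lie slightly below 0, and the 4 members beyond the dashed lines are all dim.

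Members listed on 1 array only were dim, as such rows were in general. The 3 listed on the Y27632 array alone read 3.1, 3.3 and 4.6, and the 7 listed on the control array alone read 2.6, 2.7, 2.9, 3.2, 3.8, 3.9 and 5.3. The medians were 3.3 and 3.2, against 3.7 and 3.2 for all rows listed on that array alone. Of all rows with a Y27632 value up to 4.6, 35.8% had no control value, and for the members it was 3 of 7. Of all rows with a control value up to 5.3, 34.2% had no Y27632 value, and for the members it was 7 of 13. Above those values the same arrays lacked a partner value for 4.29% and 1.47% of all rows. The bounds 4.6 and 5.3 are the highest values among the members listed on that array alone. All such members lie within them by construction, so the member counts cannot be compared with the shares of all rows. No fold is given for these 10 members.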

How the data were processed

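Per the labels' protocols, total RNA was isolated with ISOGEN and labelled with Hy5 by a miRCURY LNA kit. The deposited values are array intensities, 1 per row and array, and linear as judged from their range. How the authors corrected, normalized and thresholded them is not stated in the labels. The members and lists were chosen with earlier results of these data known.

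Members were matched by accession in the table's first column. Of 5 rows with several accessions, 0 were members. Log2 ratios of Y27632 over control used rows listed on both arrays, without pseudocount, filter or further normalization. A row was called at 1.5-fold. Members described individually were those at 10 or more on either array and the 5 highest and 5 lowest ratios, and the others are given by value. The ratio code was tested on simulated data. Alternatives were median centring, quantile normalization, lowess (fraction 0.4), a pseudocount, other limits and filters, and filled missing values. Groups of members by place or seed, the chromosome 19 cluster and cell type markers were not evaluated, because no table used here pairs accessions with names. The number of arrays limits the precision. Computations used Python 3.11.15 (matplotlib 3.10.9 for plots, statsmodels 0.14.6 for lowess, scipy 1.17.1, pandas 2.3.3, numpy 2.4.6).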

Additional observations from a re-analysis of the deposited data

Results flagged for a closer look

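The Y27632 array listed 3 members of the cluster that the control array did not list, at intensities of 4.6, 3.1 and 3.3. They are given here because no control value stands beside them, and they entered no ratio. The lowest value listed on the Y27632 array for any row was 2.7, and the control array in turn listed 7 members that the Y27632 array did not. Of all rows, 9.49% were listed on the Y27632 array alone and 9.99% on the control array alone.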

How the results depend on the processing

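The median log2 ratio of the 15 members, −0.20 as deposited, was −0.15 after quantile normalization, −0.16 after lowess and −0.28 with Y27632 values lowered by 0.4. Median centring changed no value, since the median of all rows was already 0.00, and a pseudocount of 3 (the mean 10th percentile of both arrays) cannot turn a sign, so neither bears on direction. The lowering by 0.4, which is the difference between the arrays' lowest values, was chosen after seeing the data, as was the limit of 5 on both arrays. With missing values set to the lowest on each array the median over all 43 members was 0.23, because the 18 members listed on neither array then take the ratio of the 2 lowest values. Of the 3 members higher and 1 lower at 1.5-fold, 0 and 0 were left with the pseudocount, in the brighter 50% of rows (5 members) and at 10 or more on both arrays (3 members). Quantile normalization, lowess and the lowered values each left 2 higher and 1 lower: the member at 4.0 on the Y27632 array and 2.4 in the control fell short under quantile (log2 ratio 0.56) and lowess (0.54), and MIMAT0001639 with lowered values (0.58). With 2-fold as the limit 1 was higher and 0 were lower, and at least 5 on both arrays (8 members) also gave 1 and 0. Shares of all rows past the limit are not given for the pseudocount, quantile, lowess or lowered values. They are also not given for the brighter 50% or for at least 5 on both arrays. The member counts under those settings therefore cannot be set against the whole table. Counting only values of at least 5 gave 8 members on the Y27632 array and 11 on the control array, and values of at least 10 gave 3 and 3, in place of 18 and 22. Of the 33 values of the 11 members picked by rule under quantile, lowess and lowered values, 3 reversed. They belonged to the member at 3.1 on the Y27632 array and 3.0 in the control, with log2 ratios of −0.14 (quantile), −0.16 (lowess) and −0.15 (lowered values). Leaving out a replicate was not possible. No paired analysis was possible because there is 1 array per group. Low signal limits the 22 members that were listed but stayed under 10, 18 have no value to judge, and signal over background was not examined.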
